A study of Mus musculus with 117 samples.

Results

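Chromatin in mouse hepatocytes was examined at the places where inbred strains split cleanly between a pair of states, either states 1 and 2 or states 2 and 6. A switch bin is a 200-bp stretch of an autosome that carried exactly 2 of the 14 states over the 9 strains, with each of the 2 states in at least 3 strains. There were 46542 switch bins of the pair 1/2 and 32368 of the pair 2/6, among 12313718 autosomal bins. They covered 9.31 Mb and 6.47 Mb, or 0.378% and 0.263% of the autosomal bins. The bins were chosen by the strains' states at the bins themselves, so those states are described without a test, and tests were kept to what lies around them.

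The segmentations came from ChIP-seq of liver cells labelled hepatocytes, from females 12 weeks old. Of the 9 strains, the laboratory strains were C57BL/6J, DBA/2J, A/J, 129S1/SvImJ, the diabetes-prone NOD/ShiLtJ and the obese NZO/HlLtJ, and the wild-derived strains were WSB/EiJ, CAST/EiJ and PWK/PhJ. No treatment is named in the labels. Each strain had 3 mice for each of 4 histone marks (H3K4me1, H3K4me3, H3K27ac and H3K27me3) and 1 input library, and the authors deposited a single segmentation per strain. A strain is therefore 1 value here, SDs are over the 9 strains, and nothing can be said about mice within a strain.

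A chromatin state is a recurring combination of histone marks, found by a model that reads several marks together along the genome. H3K4me3 is known for promoters of active genes, H3K4me1 for enhancers and the margins of promoters, H3K27ac for promoters and enhancers in use, and H3K27me3 for genes held silent by Polycomb. Which marks make up each state is not given in the sources used here, so the state numbers serve as names only. The chromatin came from many cells, so a mark present in fewer cells and a weaker mark in all cells cannot be told apart.

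Promoters that held a switch bin had fewer CpGs at the median than promoters kept in state 3 in every strain. RefSeq promoters were used, from 250 bases before to 50 after a transcription start, with positions in GRCm38.p6, the assembly also called mm10. Of 31365 such autosomal promoters, 262 held a 1/2 switch bin and 74 a 2/6 switch bin. A bin in state 1, 2 or 6 in at least 1 strain lay in 12767 of them. For scale, 0.378% and 0.263% of all autosomal bins were 1/2 and 2/6 switch bins, and each promoter window spans more than 1 bin. The promoters below are printed because their whole window lay in switch bins (Acaca in bins of more than 1 split of the strains, the others in bins of a single split), followed by 3 ubiquitously expressed genes whose whole window was in state 3 in all 9 strains. They read 5′ to 3′ on the strand of the gene, and capitals mark each CpG.
Ugt1a10, 1/2 switch, chr1:88055161-88055460, plus strand: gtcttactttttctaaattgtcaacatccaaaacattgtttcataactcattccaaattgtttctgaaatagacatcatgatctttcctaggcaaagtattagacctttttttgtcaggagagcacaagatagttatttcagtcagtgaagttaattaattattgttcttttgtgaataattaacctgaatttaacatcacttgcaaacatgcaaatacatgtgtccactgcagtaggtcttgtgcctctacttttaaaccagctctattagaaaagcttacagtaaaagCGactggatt
Acaca, 1/2 switch, chr11:84195188-84195487, plus strand: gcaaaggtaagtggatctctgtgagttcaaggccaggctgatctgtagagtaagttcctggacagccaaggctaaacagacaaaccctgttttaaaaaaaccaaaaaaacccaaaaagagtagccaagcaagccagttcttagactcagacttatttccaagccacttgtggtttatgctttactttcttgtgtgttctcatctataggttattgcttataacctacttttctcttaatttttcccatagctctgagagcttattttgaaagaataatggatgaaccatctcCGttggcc
Chdh, 1/2 switch, chr14:30021053-30021352, plus strand: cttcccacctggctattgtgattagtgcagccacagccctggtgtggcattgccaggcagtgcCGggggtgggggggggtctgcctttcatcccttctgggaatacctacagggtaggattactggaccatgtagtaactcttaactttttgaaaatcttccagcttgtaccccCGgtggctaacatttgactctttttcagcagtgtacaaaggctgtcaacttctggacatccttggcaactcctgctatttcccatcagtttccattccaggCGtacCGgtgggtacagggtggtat
Syne3, 1/2 switch, chr12:104998628-104998927, minus strand: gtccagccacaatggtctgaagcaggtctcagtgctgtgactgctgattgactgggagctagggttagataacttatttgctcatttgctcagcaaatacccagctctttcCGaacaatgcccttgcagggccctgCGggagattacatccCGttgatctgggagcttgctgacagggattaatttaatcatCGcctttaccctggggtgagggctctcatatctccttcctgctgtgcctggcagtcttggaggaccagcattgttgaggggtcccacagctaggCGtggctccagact
Ankrd6, 1/2 switch, chr4:32864484-32864783, minus strand: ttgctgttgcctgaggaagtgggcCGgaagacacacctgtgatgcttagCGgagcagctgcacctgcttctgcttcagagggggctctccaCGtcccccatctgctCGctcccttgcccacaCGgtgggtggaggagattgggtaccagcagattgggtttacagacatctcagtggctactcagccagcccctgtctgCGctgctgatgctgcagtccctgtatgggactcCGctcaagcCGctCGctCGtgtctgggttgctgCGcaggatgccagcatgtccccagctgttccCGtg
Avil, 2/6 switch, chr10:127000459-127000758, plus strand: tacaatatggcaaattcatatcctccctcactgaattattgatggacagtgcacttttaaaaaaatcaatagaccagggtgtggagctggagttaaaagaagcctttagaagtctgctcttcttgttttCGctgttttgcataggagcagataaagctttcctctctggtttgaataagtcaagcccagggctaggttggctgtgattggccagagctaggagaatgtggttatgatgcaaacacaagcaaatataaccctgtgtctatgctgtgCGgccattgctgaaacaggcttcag
Ppia, state 3 in all strains, chr11:6415617-6415916, plus strand: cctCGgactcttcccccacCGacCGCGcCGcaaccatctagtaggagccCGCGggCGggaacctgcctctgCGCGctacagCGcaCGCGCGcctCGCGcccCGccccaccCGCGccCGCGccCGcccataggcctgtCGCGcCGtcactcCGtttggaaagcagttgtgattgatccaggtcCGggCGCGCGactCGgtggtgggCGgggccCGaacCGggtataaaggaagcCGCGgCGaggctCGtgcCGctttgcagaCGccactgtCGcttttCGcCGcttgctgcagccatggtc
Polr2a, state 3 in all strains, chr11:69758584-69758883, minus strand: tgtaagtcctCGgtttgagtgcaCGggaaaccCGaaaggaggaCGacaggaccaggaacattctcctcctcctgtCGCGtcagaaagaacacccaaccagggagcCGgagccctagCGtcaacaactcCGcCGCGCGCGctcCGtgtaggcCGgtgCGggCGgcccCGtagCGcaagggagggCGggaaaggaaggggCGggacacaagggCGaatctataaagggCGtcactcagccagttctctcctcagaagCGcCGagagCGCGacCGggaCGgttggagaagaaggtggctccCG
Hnrnpa1, state 3 in all strains, chr15:103240147-103240446, plus strand: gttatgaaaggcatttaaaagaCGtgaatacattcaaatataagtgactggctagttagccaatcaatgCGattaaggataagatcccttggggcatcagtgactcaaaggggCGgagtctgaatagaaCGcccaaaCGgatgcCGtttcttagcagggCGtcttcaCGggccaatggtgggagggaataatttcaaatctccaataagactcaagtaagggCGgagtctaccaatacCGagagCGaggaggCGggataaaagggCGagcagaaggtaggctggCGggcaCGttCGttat

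The switch promoters printed carry from 1 CpG in Ugt1a10 and Acaca to 12 in Ankrd6, and Hopx and Ifnk, whose windows also lay in a single 1/2 block, have 8 and 3. The state 3 promoters printed range from 16 in Hnrnpa1, which encodes an RNA-binding protein of splicing, through 30 in Polr2a, the largest subunit of RNA polymerase II, to 43 in Ppia, cyclophilin A. Ugt1a10, a start of the UDP-glucuronosyltransferase cluster that conjugates bilirubin and drugs, was in state 1 in A/J, CAST/EiJ, DBA/2J, NZO/HlLtJ and WSB/EiJ and in state 2 in the other 4 strains. Chdh, choline dehydrogenase, was in state 2 in DBA/2J, PWK/PhJ and WSB/EiJ and in state 1 elsewhere. Syne3, which encodes a nesprin of the nuclear envelope, was in state 2 in CAST/EiJ, PWK/PhJ and WSB/EiJ. Ankrd6 was in state 1 in 129S1/SvImJ, A/J, DBA/2J and WSB/EiJ and in state 2 in the other 5. Avil, which encodes the actin-binding protein advillin, was in state 2 in 129S1/SvImJ, CAST/EiJ, NZO/HlLtJ and PWK/PhJ and in state 6 in the other 5. Acaca encodes acetyl-CoA carboxylase, which makes malonyl-CoA for fatty acid synthesis, and all 3 bins of its printed window were 1/2 switch bins.

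Low CpG content was also seen in the medians of the switch promoters. The median promoter with a 1/2 switch bin had 3 CpGs and 50.7% G and C, and the median one with a 2/6 switch bin had 3 CpGs and 48.7%. Promoters with a bin of state 3 in all strains had a median of 25 CpGs and 63.7% (8168 promoters), and all promoters together had 7 and 53.0%. Those with a bin in state 1, 2 or 6 in at least 1 strain had a median of 14 CpGs and 56.7% (12767 promoters). Short motifs were searched on both strands of the same 300 bases. The TATA box letters TATAAA occurred in 13.7% of promoters with a 1/2 switch bin, 16.2% of those with a 2/6 switch bin, 5.30% of those with stable state 3 and 13.6% of all promoters. The FOXA core TGTTTAC occurred in 4.96%, 8.11%, 2.52% and 3.71% in the same order, which is 13 and 6 promoters in the switch sets. For the HNF4 motif CAAAGTCCA the shares were 1.53%, 0%, 0.367% and 0.488%, and for CCAAT they were 42.0%, 35.1%, 37.9% and 37.3%. The HNF1 motif was in 0.382%, 1.35%, 0.282% and 0.405%, and the CEBP motif, TTGCGCAA, in 0%, 1.35%, 0.343% and 0.179%. The switch promoters with an HNF1 match include Ugt1a10, where it starts 75 bases before the transcription start on the opposite strand. These matches describe letters in the window and are not evidence of bound factors.

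Some microRNA hairpins lay in switches. Of 919 autosomal hairpins, 6 touched a 1/2 switch bin and 1 touched a 2/6 switch bin, while 247 touched a bin that was in state 1, 2 or 6 in at least 1 strain. The hairpins of the let-7, miR-190 and miR-21 families are shown by a mature product from RefSeq, written 5′ to 3′ with the seed, bases 2 to 8, in capitals; no seed was shared among them.
let-7b-5p, 1/2 switch, chr15:85707319-85707403, plus strand: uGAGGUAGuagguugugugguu
miR-190a-5p, 1/2 switch, chr9:67236660-67236726, minus strand: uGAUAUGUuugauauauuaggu
miR-21c, 2/6 switch, chr8:128278148-128278225, minus strand: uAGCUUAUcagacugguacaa
Over the let-7b hairpin, A/J, C57BL/6J and PWK/PhJ were in state 2 and the other 6 strains in state 1. Over miR-190a, state 1 was found in 129S1/SvImJ, CAST/EiJ and NZO/HlLtJ. Over miR-21c, 129S1/SvImJ, C57BL/6J and WSB/EiJ were in state 2 and the other 6 in state 6. The remaining hairpins, all at 1/2 switches, were miR-7068, miR-7684, miR-6978 and miR-12196.

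Both pairs made up small shares of the bins at which strains split between 2 states. Of 1375496 autosomal bins with exactly 2 states of any kind, each in at least 3 strains, 3.38% were 1/2 switch bins and 2.35% were 2/6 switch bins. Larger shares were held by the pairs 13/14 (67.9%), 4/14 (12.0%) and 6/14 (6.17%). The pair 1/2 made up 4.84% of the 962350 bins ever in either of its states, and 2/6 made up 2.72% of 1189018. No split was dominant: the 1/2 bins with state 1 in 3, 4, 5 and 6 strains numbered 11782, 10970, 11410 and 12380, and just outside the threshold 13802 bins had it in 2 strains and 15191 in 7. The 2/6 bins with state 2 in 3, 4, 5 and 6 strains numbered 8616, 7898, 7661 and 8193, with 10437 and 9495 just outside. Of the 420 possible ways to divide the strains, 419 occurred at 1/2 bins and 420 at 2/6 bins.

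Strains differed widely in which state they carried. State 1 was carried at 76.3% of the 1/2 bins in NZO/HlLtJ, 66.7% in 129S1/SvImJ and 64.6% in NOD/ShiLtJ. A/J had it at 52.9%, CAST/EiJ at 51.7% and DBA/2J at 47.0%. The low strains were WSB/EiJ at 35.6%, PWK/PhJ at 31.3% and C57BL/6J at 26.2%. Among all other bins of state 1 or 2 the strains had between 48.1% and 57.8% in state 1. Those bins include all that never differ between strains, so the wider spread at the switches follows from the rule.

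At the 2/6 bins, 129S1/SvImJ stood lowest, with state 6 at 18.8%. C57BL/6J had state 6 at 41.7%, CAST/EiJ at 44.9%, NZO/HlLtJ at 46.2%, WSB/EiJ at 49.5% and PWK/PhJ at 50.03%. DBA/2J reached 62.5%, NOD/ShiLtJ 68.4% and A/J 70.3%. Away from the switches, state 6 made up between 47.2% and 59.5% of each strain's bins of state 2 or 6. The order of strains was thus different at the 2 pairs: 129S1/SvImJ was next to highest for state 1 at 1/2 bins and lowest for state 6 at 2/6 bins. The depth of each strain's libraries and the reference to which the reads of each strain were aligned are not given in the sources used here, and their part in these shares was not tested.

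**Figure D1:**
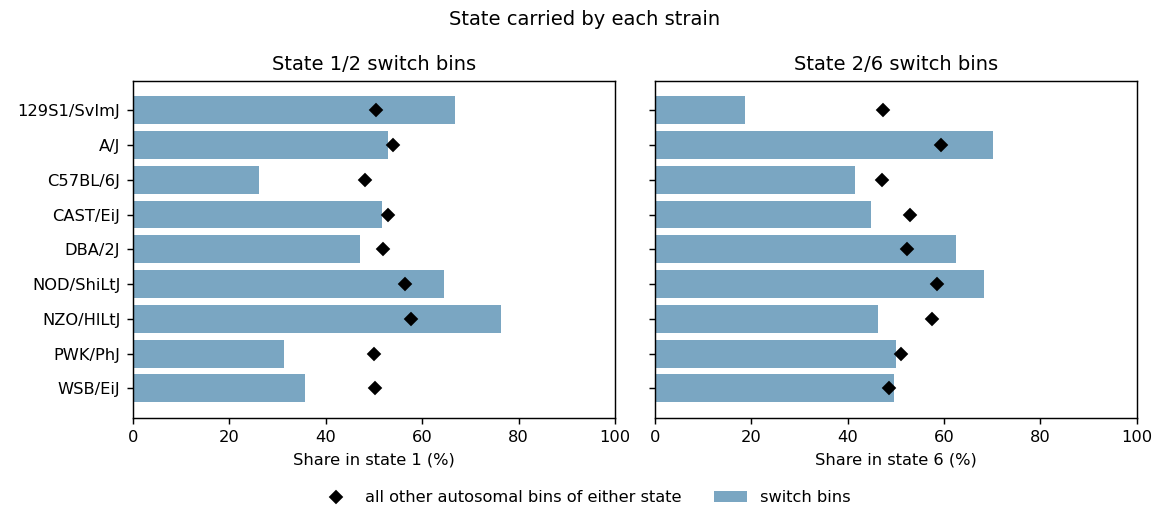
Bars give, for each strain on the vertical axis, the share (%) of 1/2 switch bins in state 1 (left) and of 2/6 switch bins in state 6 (right), and diamonds give the same share among all other autosomal bins of either state. Bars run from 26.2% to 76.3% on the left and from 18.8% to 70.3% on the right, and the diamonds, which include bins that never differ between strains, lie between 47.2% and 59.5%.

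Some splits of the strains were more frequent than others. At 1/2 bins the leading split had C57BL/6J, PWK/PhJ and WSB/EiJ in state 2 and the other 6 in state 1, with 1382 bins or 2.97%. Next came the split that put the 3 wild-derived strains CAST/EiJ, PWK/PhJ and WSB/EiJ in state 2, with 993 bins. At 2/6 bins the leading split had A/J, DBA/2J and NOD/ShiLtJ in state 6, with 472 bins or 1.46%. The 10 leading splits held 18.4% of the 1/2 bins and 12.5% of the 2/6 bins. Over the 36 strain pairs, the same state was shared at 47.3% of the bins on average for each pair of states, a mean that the split sizes fix. Strain pairs ranged at 1/2 bins from 32.6% for NOD/ShiLtJ with PWK/PhJ to 59.4% for 129S1/SvImJ with NZO/HlLtJ. At 2/6 bins they ranged from 37.4% for 129S1/SvImJ with NOD/ShiLtJ to 58.4% for A/J with NOD/ShiLtJ.

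Switch bins formed short stretches. A region is a run of adjoining switch bins of the same pair, and a block is a run with the same split of the strains. The 1/2 bins formed 23142 regions with a median of 400 bp and a longest of 5400 bp, and 49.5% of them were a single bin. The 2/6 bins formed 16601 regions with a median of 200 bp and a longest of 3000 bp, 50.9% of them a single bin. Regions of at least 1 kb numbered 1471 and 941. Among regions of more than 1 bin, 30.3% at 1/2 and 31.3% at 2/6 kept the same split throughout, so most longer regions passed through several splits.

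The bins next to a region show where it lay. A neighbouring bin was given a state when at least 5 strains carried it. Of the 1/2 regions, 59.8% had state 1 on one side and state 2 on the other, 16.0% had state 2 on both sides and 9.16% had state 1 on both. Most 1/2 switches were thus at the border between a stretch of state 1 and a stretch of state 2. Of the 2/6 regions, 27.1% had states 2 and 6 on the opposite sides, 16.1% state 6 on both and 10.5% state 2 on both. State 2 faced a bin without such a majority at 17.1%, and state 6 did so at 14.4%.

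The longest blocks show what a switch looks like in place. At 1/2, the longest was chr3:157726801-157729400, 2600 bp with no protein-coding gene within 50 kb, in state 1 in CAST/EiJ, PWK/PhJ and WSB/EiJ and in state 2 in the 6 laboratory strains. The next was chr4:45480201-45482400, 2200 bp inside Shb, an adaptor protein of tyrosine kinase signalling, with A/J, CAST/EiJ and PWK/PhJ in state 2. A block of 1800 bp, chr11:16791601-16793400, lay inside Egfr, the epidermal growth factor receptor, with state 1 in 129S1/SvImJ, NOD/ShiLtJ and NZO/HlLtJ. Further blocks of 1800 bp lay in Tns1, which links actin to adhesions, in Ralgapa2, a regulator of Ral GTPases, in Lrig1, which restrains receptor tyrosine kinases, in Albfm1, 8104 bp from Cdk15, and 22576 bp from Eif1a. A block of 1600 bp in Mreg, which acts in melanosome transport, completed the 10 longest.

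At 2/6, the longest block was chr19:20696001-20697400, 1400 bp inside Aldh1a7, an aldehyde dehydrogenase gene, with state 2 in 129S1/SvImJ, CAST/EiJ and PWK/PhJ and state 6 in the other 6. Its nearest state 3 bin was between 92800 and 93800 bp away, depending on the strain. The next 9 were all of 1200 bp. The block chr10:89492401-89493600 lay inside Nr1h4, which encodes the bile acid receptor FXR, with A/J, DBA/2J, NOD/ShiLtJ and WSB/EiJ in state 6. The blocks in Nfia, a transcription factor of the nuclear factor I family, and Ankrd11, a chromatin cofactor, put A/J in state 6 as well. Blocks of the same length lay in Plxna2, a semaphorin receptor, Ptprj, a receptor tyrosine phosphatase, Cux1, a homeobox factor, and Agmo, which cleaves ether lipids, and 2 had no protein-coding gene within 50 kb.

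**Figure D2:**
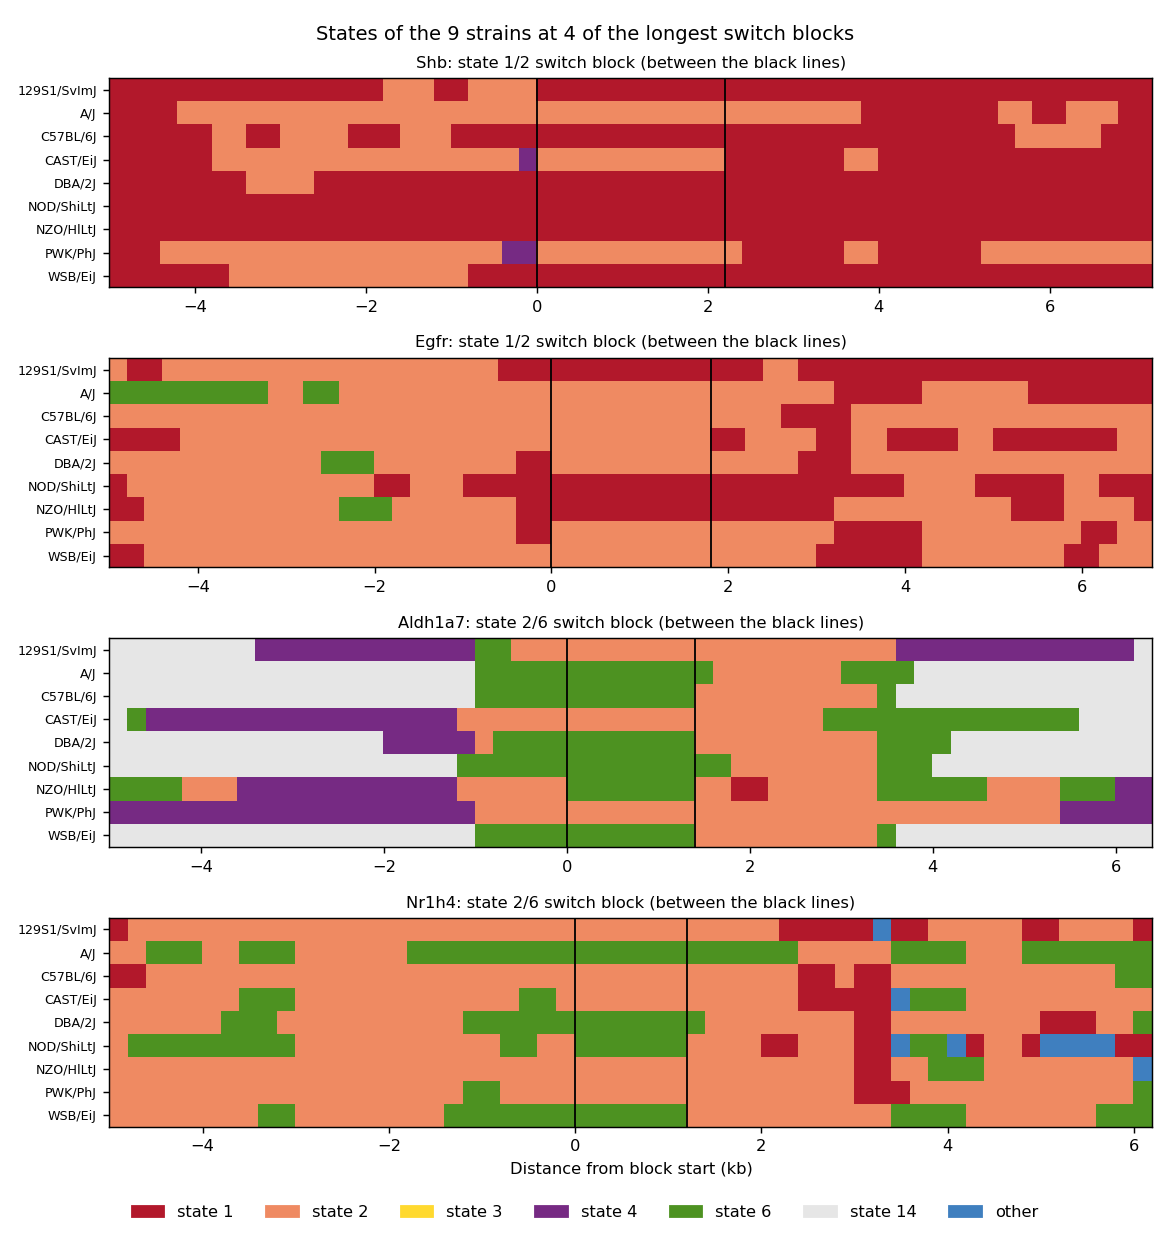
Each panel shows the states of the 9 strains (rows) along the distance in kb from the start of a switch block, in 200-bp bins coloured by state, with black lines at the block's ends. In the Shb and Egfr blocks the strains were in state 1 or 2, and in the Aldh1a7 and Nr1h4 blocks in state 2 or 6, and the same 3 states recur outside the lines.

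The pairs differed in how far they lay from state 3, a state the rule did not use and which covered 39.5% of protein-coding transcription start sites on average. The median distance from a 1/2 bin to the nearest state 3 bin of the same strain was 15800 bp ± 1520 (SD, n = 9), lowest in DBA/2J at 13000 bp and highest in C57BL/6J at 17800 bp. From 2/6 bins it was 31133 bp ± 1572, between 28000 bp in DBA/2J and 32800 bp in C57BL/6J and NOD/ShiLtJ. No strain's 2/6 value overlapped any 1/2 value. The difference was 0.98 ± 0.079 on the log2 scale, or 1.98-fold, and was higher at 2/6 in 9 of 9 strains. An exact permutation test that flips the sign of each strain's value gave p = 0.00391 (two-sided, the smallest p that 9 strains allow). The switch bins are the same positions in every strain, so the 9 values measure 1 set of positions again and are not independent. The p therefore does not measure how the difference would vary over other positions. Measured to bins of state 3 in all 9 strains, the difference was 0.56 on the log2 scale. That distance is the same for every strain, so no test over strains applies to it. Bins within 5 kb of state 3 made up 19.5% of 1/2 bins and 2.28% of 2/6 bins.

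Both pairs sat far from state 3 beside bins that were in state 1 in all strains, whose median distance was 2400 bp and of which 61.7% lay within 5 kb. Bins of state 2 in all strains were at 26289 bp and those of state 6 in all strains at 35433 bp. The 1/2 switches thus lay between stable state 1 and stable state 2, and the 2/6 switches between stable state 2 and stable state 6.

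The state a strain carried at a switch went with the states around it. Within each block, strains with the first state were set against strains with the other, over 2 kb on each side of the region and with all switch bins left out. A segmentation model reads neighbouring bins jointly, so the nearest bins are not independent of the switch itself. Around 1/2 switches, strains in state 1 had 42.1% of the flank in state 1 and strains in state 2 had 31.6%. The difference was 10.4 points ± 1.32 (SD, n = 9), lowest in DBA/2J at 8.71, with a median of 9.93 and highest in PWK/PhJ at 12.4. All 9 strains showed it (exact sign-flip permutation test, adjusted p = 0.00476 over 28 tests). In this and the other flank tests, each strain's value is taken against the other strains at the same blocks. The 9 values thus share data and are not independent, so agreement in all 9 strains is partly built in. State 2 took 32.5% of the flank in strains with state 1 and 37.4% in strains with state 2.

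Less of the flank was in states 4 and 14 where a strain had state 1. State 4 took 12.96% against 15.8%, a difference of -2.87 points ± 0.578, and state 14, the commonest state of the genome, took 5.45% against 8.01%, a difference of -2.56 ± 0.742. State 6 took 3.67% against 5.27%. State 3 was rare but higher on the side of state 1, at 1.02% against 0.643%, and state 8 was at 1.85% against 0.871%. Each of these differences had the same sign in 9 of 9 strains with an adjusted p of 0.00476 (exact sign-flip permutation test), and 13 of the 14 states passed 0.05. With the first 1 kb next to the region left out, the difference in state 2 was -0.22 points with an adjusted p of 0.62 (exact sign-flip permutation test), and that in state 1 fell to 4.93 points, while state 14 was at -3.71. State 4 was then at -1.31 points and state 6 at -0.87. Without NOD/ShiLtJ the state 8 difference was 0.641 points, against 0.981 with all strains.

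Around 2/6 switches the difference reached state 14. Strains in state 6 had 35.6% of the flank in state 14 and strains in state 2 had 24.7%, a difference of 10.9 points ± 1.51 (SD, n = 9), from 8.77 in A/J to 13.2 in PWK/PhJ. State 2 took 17.5% against 30.0%, a difference of -12.5 points ± 1.20, and state 6 took 33.2% against 23.3%. State 4 took 7.62% against 14.4%, a difference of -6.74 points ± 0.378, and state 1 took 3.96% against 6.44%. All of these had the same sign in 9 of 9 strains, with an adjusted p of 0.00476 each (exact sign-flip permutation test), and 13 of the 14 states passed 0.05. With the first 1 kb left out, the differences were 8.03 points in state 14, -5.16 in state 2, 3.46 in state 6, -5.50 in state 4 and -1.59 in state 1.

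With distance most of these differences became smaller. The shares at 5 kb given here pool all strains and blocks without matching within a block. Strains that often carry a state therefore weigh more in that state's group. At 5 kb from a 2/6 region, state 14 was at 52.9% in strains with state 6 and 47.9% in strains with state 2. At 5 kb from a 1/2 region, state 1 was at 23.0% in strains with state 1 and 20.1% in strains with state 2. State 4 had by then reached 19.8% in both groups.

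**Figure D3:**
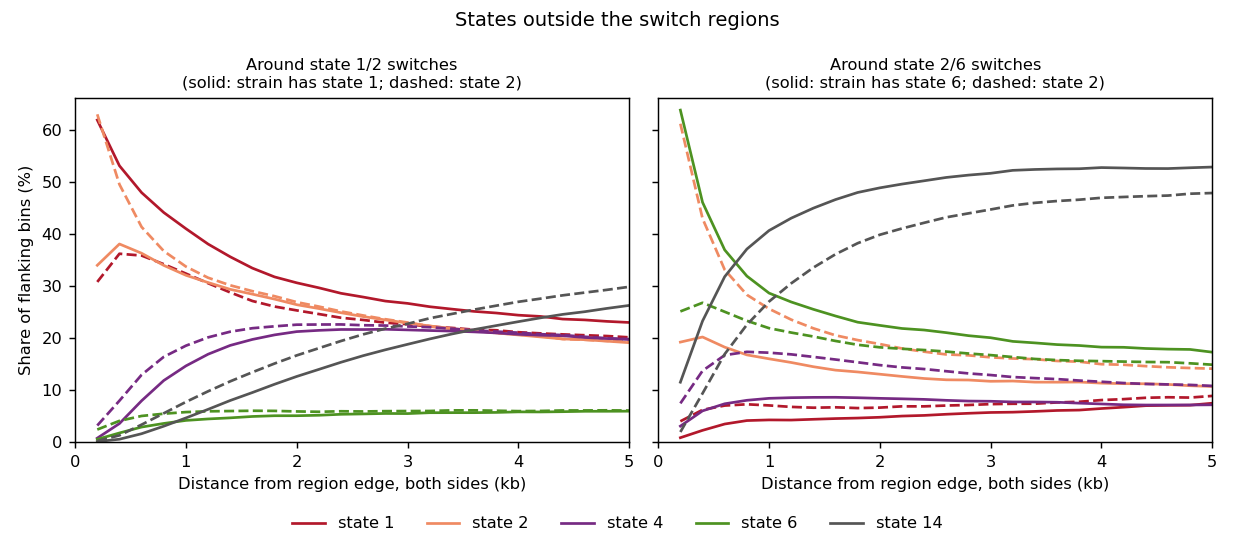
The share (%) of flanking bins in states 1, 2, 4, 6 and 14 is drawn against the distance from the region edge in kb, both sides together, as the mean over strains and blocks. Solid lines are strains with state 1 (left) or state 6 (right) at the switch and dashed lines are strains with state 2, and state 14 on the right is at 40.7% (solid) and 27.0% (dashed) at 1 kb and at 52.9% and 47.9% at 5 kb.

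The deposited segments over the switch bins did not differ in length in all strains alike. Segments of state 1 over 1/2 bins had a median of 1733 bp ± 374 and those of state 2 had 1400 bp ± 200 (SD, n = 9). State 1 segments were longer in 6 strains and shorter in C57BL/6J, PWK/PhJ and WSB/EiJ, with a mean log2 difference of 0.33 ± 0.43 (exact sign-flip permutation test, p = 0.0586, adjusted p = 0.117 over the 2 pairs). At 2/6 bins the log2 difference between state 6 and state 2 was 0.087 ± 0.443, positive in 4 strains and negative in 5 (exact p = 0.578, adjusted p = 0.578).

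Neighbouring switches can be set side by side in the same strain. These are the states that chose the bins, and blocks a short distance apart are often cut from the same deposited segments, so the values are a description with no test, added after the data had been seen. For blocks of 1/2 and 2/6 less than 1 kb apart (3089 pairs), a strain was in state 2 rather than 6 at the 2/6 block in 64.9% of cases where it had state 1 at the 1/2 block, and in 44.1% where it had state 2 there. The difference of 20.9 points ± 7.25 (SD, n = 9) ranged from 11.3 in 129S1/SvImJ to 31.2 in CAST/EiJ, with a median of 21.6. It was 11.5 points at 1 to 5 kb, 5.63 at 5 to 20 kb and 2.77 at 20 to 100 kb, positive in 9 of 9 strains at each of these distances. At 100 to 1000 kb it was 0.27 points ± 0.73 and positive in 5 strains.

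Blocks of the same pair had larger mean differences within 1 kb. For 1/2 blocks within 1 kb of each other the difference was 31.4 points ± 6.82, and it was 17.4, 9.30, 3.84 and 0.89 over the longer distances. For 2/6 blocks it was 31.9 points ± 5.37 within 1 kb, then 16.1, 10.1, 6.67 and 1.05.

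**Figure D4:**
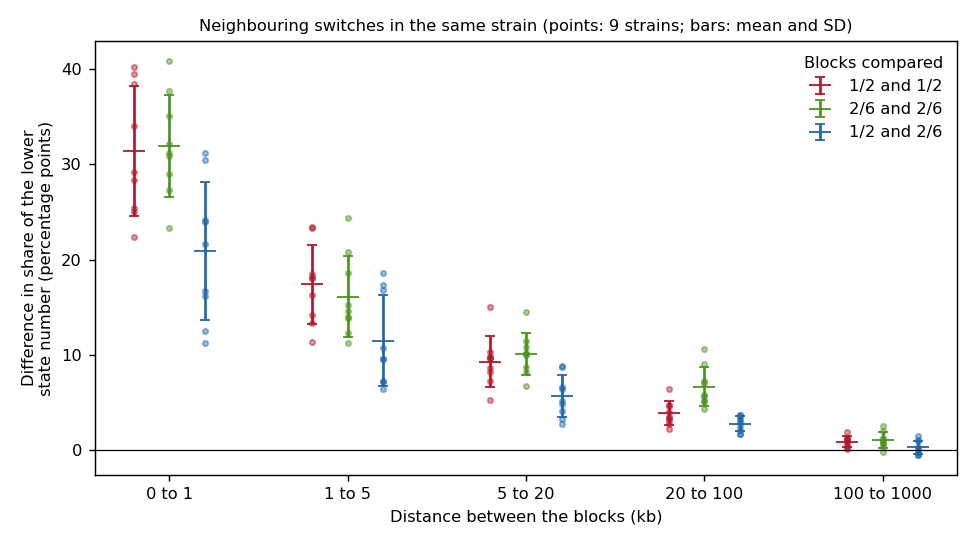
For pairs of switch blocks at 5 distances in kb, points give each strain's difference (percentage points) in how often the second block has its lower state number when the first block does and when it does not; horizontal bars with whiskers are means and SDs over 9 strains. Means fall from 31.4, 31.9 and 20.9 points below 1 kb to 0.89, 1.05 and 0.27 points at 100 to 1000 kb.

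Both kinds of switch lay mainly inside genes. Within 1 kb of either end of a protein-coding gene lay 4.02% of 1/2 bins and 2.15% of 2/6 bins. For 1/2 this was above, and for 2/6 below, the 3.32% of all autosomal bins. Of bins in state 1 in all strains, 23.0% lay there. The rest of gene bodies held 65.1% and 77.1%, against 38.1% of all autosomal bins. More than 5 kb from any gene lay 24.0% and 17.9%, against 54.3% of all. Bins in state 1, 2 or 6 in at least 1 strain had 7.85% at gene ends, 60.9% in the rest of gene bodies and 25.8% beyond 5 kb. The 1/2 shares in gene bodies and beyond 5 kb were thus nearer to those bins than to all autosomal bins. Bins in state 2 in all strains had 68.1% in gene bodies, those in state 6 had 78.2%, and those in state 1 had 55.8%.

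Transcription start sites were low in switches. Over 20063 RefSeq start sites of 16437 protein-coding genes, 0.279% had a 1/2 switch bin at the start itself. The share was 0.773% at 1 to 5 kb upstream, 0.560% at 1 to 5 kb downstream and 1.20% at 10 kb downstream, where the share of all autosomal bins was 0.378%. For 2/6 switches it was 0.0548% at the start, 0.128% at 1 to 5 kb upstream, 0.111% downstream and 0.723% at 10 kb downstream, against 0.263% of all bins. The dip of the 2/6 switches was the wider one, and on the downstream side both rose again only some kilobases into the gene.

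**Figure D5:**
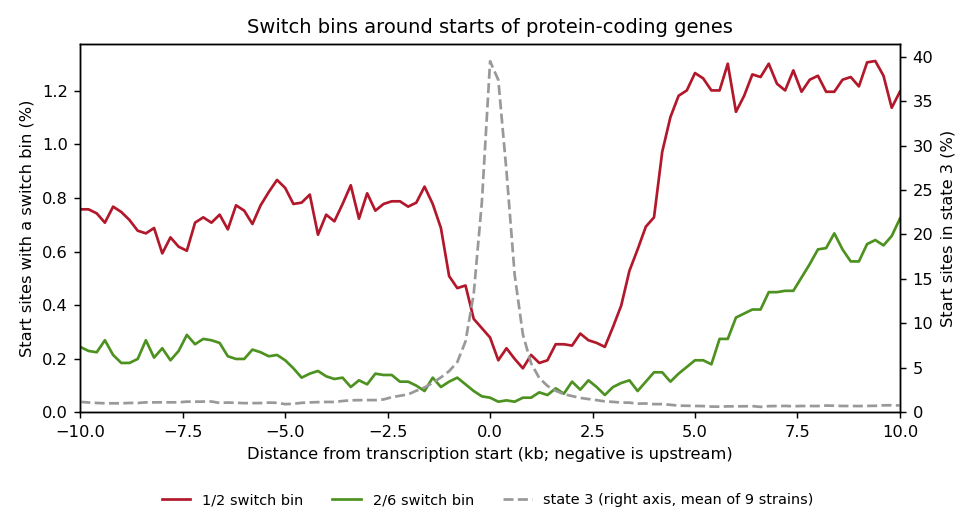
The share (%) of 20063 start sites with a 1/2 or 2/6 switch bin (left axis) and in state 3 (right axis, mean of 9 strains) is drawn against the distance in kb from the start, negative upstream. The 1/2 line is at 0.279% at the start and 1.27% at 5 kb downstream, the 2/6 line is at 0.0548% and 0.194%, and state 3 peaks at 39.5%.

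By gene, 5350 of 20665 autosomal protein-coding genes had a 1/2 switch bin in the gene or within 5 kb, a background of 25.9%, and 4389 had a 2/6 switch bin, a background of 21.2%. Gene lists written from general knowledge are described against these backgrounds without a test, since longer genes and genes with more bins in states 1, 2 or 6 have more room for a switch. The median gene of all had 26 bins ever in state 1, 2 or 6, while the medians of the plasma protein and hepatocyte transcription factor lists were 74.5 and 170. The median of the developmental regulators was 0, which left most of them no room for a switch.

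Liver function genes often held 1/2 switches. Of 24 secreted plasma proteins 21 held one, of 25 cytochrome P450 and conjugation genes 23, and of 29 glucose and amino acid genes 27. Lipid and cholesterol genes had 22 of 30, hepatocyte transcription factors 20 of 25, circadian clock genes 12 of 15 and hepatocyte markers 8 of 10. Ubiquitously expressed genes had 7 of 18 and developmental regulators 2 of 20. As a share of the bins ever in state 1, 2 or 6, the 1/2 bins were 8.002% in the plasma protein list and 7.24% in the cytochrome P450 list, against 3.22% over all genes. Hepatocyte transcription factors were at 6.87%, glucose and amino acid genes at 6.81% and lipid and cholesterol genes at 5.23%. Circadian clock genes, at 4.36%, and hepatocyte markers, at 3.69%, were nearer to the share of all genes than their gene counts were. Ubiquitously expressed genes were at 3.11% and developmental regulators at 1.22%.

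Counts for the 2/6 switches were lower in most lists. Lipid and cholesterol genes had 17 of 30, circadian clock genes 7 of 15 and glucose and amino acid genes 13 of 29. Plasma proteins had 7 of 24, cytochrome P450 and conjugation genes 9 of 25, hepatocyte transcription factors 9 of 25, hepatocyte markers 4 of 10, ubiquitously expressed genes 5 of 18 and developmental regulators 3 of 20. As a share of bins ever in state 1, 2 or 6, 2/6 bins made up 1.83% in the plasma protein list and 0.969% in the cytochrome P450 list, against 2.30% over all genes. The hepatocyte marker list was at 6.42%, the developmental list at 4.27% and the glucose and amino acid list at 4.08%. Cps1, with 87 bins, belongs to the first and the last of these. In the developmental list Gata4 held 12 bins, and Lhx2 and Pax2 held 1 each. The lipid and cholesterol list, with 17 of 30 genes, was at 1.96%, below the share over all genes.

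The marker lists of other liver cells were short, and their counts are to be read against the backgrounds of 25.9% and 21.2%. Of 6 Kupffer cell and leukocyte markers none held a switch of either pair, and of 6 stellate cell and bile duct markers 1 held a 2/6 switch and none a 1/2 switch. These 2 lists had medians of 11 and 7.5 bins ever in state 1, 2 or 6, against 26 over all genes. They thus had little room for a switch. The endothelial median was 39.5. Endothelial markers had 2 of 6 (33.3%) and 3 of 6 (50%), above both backgrounds by gene count. The 2/6 count rests on 1 bin each in Lyve1, Pecam1 and Stab2. As a share of bins ever in state 1, 2 or 6, the endothelial list was at 0.771% for 2/6, below the 2.30% of all genes. For 1/2 it was at 3.60%, against 3.22% of all genes. At the ends of the marker genes, state 3 covered 17.8% ± 2.23 of bins for hepatocyte markers (SD, n = 9), 3.87% ± 5.89 for endothelial, 4.87% ± 2.95 for Kupffer cell and leukocyte and 3.70% ± 1.39 for stellate and bile duct markers. At most 5 of the 6 endothelial markers had state 3 in any strain and none did in another, and the part of other cells in the switches was not tested.

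Among genes of drug metabolism and energy use, those with the most 1/2 bins differed sharply between strains, as follows from the choice. Por, the reductase that feeds electrons to microsomal cytochromes P450, had 82 1/2 bins. Of these, state 1 was carried at 75 in 129S1/SvImJ, 62 in NOD/ShiLtJ, 57 in NZO/HlLtJ, 47 in CAST/EiJ, 37 in C57BL/6J, 31 in A/J and in WSB/EiJ, 30 in DBA/2J and 0 in PWK/PhJ. PWK/PhJ was thus in state 2 at every Por switch bin. Ugt1a10 had 125 1/2 bins, with state 1 at 114 in NOD/ShiLtJ, 112 in NZO/HlLtJ and 109 in 129S1/SvImJ but 27 in C57BL/6J and 13 in PWK/PhJ. Ugt1a9, Ugt1a8 and Ugt1a7c, with 118, 103 and 90 bins, lie within it and share its bins. Ephx1, the microsomal epoxide hydrolase, had 24 bins, 22 of them in state 1 in 129S1/SvImJ and 1 in PWK/PhJ.

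Growth and insulin signalling genes were prominent. Igf1, the growth factor that the liver releases under growth hormone, had 87 1/2 bins, which were 21.3% of its bins ever in state 1, 2 or 6. State 1 was carried at 85 of these in NZO/HlLtJ, 82 in NOD/ShiLtJ and 62 in A/J, and at 16 in C57BL/6J and 9 in PWK/PhJ. Insr, the insulin receptor, had 77, with state 1 at 67 in NZO/HlLtJ, 66 in NOD/ShiLtJ and 3 in PWK/PhJ. Shb had 91, with a different order of strains, since state 1 was at 83 in NZO/HlLtJ and 80 in NOD/ShiLtJ but at 6 in A/J. Pcx, pyruvate carboxylase of gluconeogenesis, had 72, from 67 in state 1 in NOD/ShiLtJ to 12 in C57BL/6J. Slc2a2, the main glucose transporter of hepatocytes, had 31, from 29 in NOD/ShiLtJ to 3 in C57BL/6J.

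Lipid genes and nuclear receptors had further 1/2 switches. Lipc, hepatic lipase, had 81 bins with state 1 at 61 in 129S1/SvImJ, a median of 38 and 15 in PWK/PhJ. Acaca had 30, with state 1 at 24 in A/J and 7 in C57BL/6J, and Elovl6, a fatty acid elongase, had 29, with 22 in WSB/EiJ and 8 in NOD/ShiLtJ. Ppara, the receptor that drives fatty acid oxidation, had 43, with 38 in A/J, 36 in 129S1/SvImJ, 6 in DBA/2J and 1 in PWK/PhJ. Rxra, the partner of many nuclear receptors, had 61, from 51 in NZO/HlLtJ to 5 in A/J. Rora, a receptor of the clock, had 94, and Nfib and Nfia had 108 and 98, with Nfib in state 1 at 102 bins in NZO/HlLtJ and 11 in PWK/PhJ. Hnf4a, a regulator of hepatocyte identity, had 25, with 20 in DBA/2J and 3 in PWK/PhJ. Mtss1, which binds actin at membranes, had 84.

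Secreted proteins had fewer but dense switches. C3, the central complement component, had 42 bins, 25.5% of those ever in state 1, 2 or 6, in state 1 at 38 in NZO/HlLtJ, 32 in 129S1/SvImJ, 6 in A/J, 4 in PWK/PhJ and 3 in CAST/EiJ. Hp, haptoglobin, had 16, with all 16 in state 1 in NOD/ShiLtJ, 13 in CAST/EiJ, 12 in A/J and 0 in C57BL/6J, PWK/PhJ and WSB/EiJ. Trf, transferrin, had 18, from 17 in 129S1/SvImJ to 0 in CAST/EiJ. F2, prothrombin, had 11, with all of them in state 1 in DBA/2J and NOD/ShiLtJ and none in CAST/EiJ. Among ubiquitously expressed genes the count was led by B2m, the light chain of class I histocompatibility molecules, with 16, all in state 1 in NOD/ShiLtJ and NZO/HlLtJ and none in PWK/PhJ.

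At 2/6 the leading genes were long ones. Zbtb20, a transcriptional repressor of hepatocytes, had 192 bins, with state 6 at 162 in DBA/2J, 161 in NOD/ShiLtJ, 132 in A/J, 118 in C57BL/6J, 86 in WSB/EiJ, 77 in NZO/HlLtJ, 60 in PWK/PhJ, 46 in 129S1/SvImJ and 40 in CAST/EiJ. Arid1b, a subunit of the SWI/SNF remodelling complex, had 126, from 91 in state 6 in NOD/ShiLtJ to 19 in NZO/HlLtJ. Magi1 and Pard3, which organise cell junctions and polarity, had 123 and 122. Ankrd11 had 116, with 110 in state 6 in WSB/EiJ, 102 in A/J and 13 in 129S1/SvImJ. Pid1, Nfia and Akap13 had 102, 98 and 88. Nfia had 98 bins of each pair.

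Ghr, the growth hormone receptor, had 104 bins, with state 6 at 86 in A/J, a median of 60 and 11 in 129S1/SvImJ. Thrb, a thyroid hormone receptor, had 89, with 72 in NOD/ShiLtJ and 15 in 129S1/SvImJ. Cps1, which starts the urea cycle, had 87, with state 6 at 85 in A/J, 74 in C57BL/6J and 71 in NOD/ShiLtJ against 16 in 129S1/SvImJ and 14 in NZO/HlLtJ. Other urea cycle genes had few, with 0 in Ass1 and Arg1 and 2 in Asl. Foxo1, a factor of gluconeogenesis under insulin control, had 67, from 57 in NOD/ShiLtJ to 8 in 129S1/SvImJ. Nr5a2, a receptor of bile acid and steroid metabolism, had 40, from 30 in NOD/ShiLtJ to 3 in 129S1/SvImJ. At Nr1h4 there were 34, with state 6 at 31 in A/J, 29 in DBA/2J and in NOD/ShiLtJ and 27 in WSB/EiJ, and at 14 or fewer in the other 5 strains, among which 129S1/SvImJ had 0.

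Some genes had switches of both pairs in unequal numbers. Lipc had 81 of 1/2 and 26 of 2/6, Hnf4a 25 and 3, Acaca 30 and 9, and Rora 94 and 44. Apob, which carries lipids out of the liver, had 7 and 14, and Arntl, a core clock factor, had 11 and 15. Gata4, in the developmental list, had 3 and 12, and was the member with the most 2/6 bins there.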

How the data were processed

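ChIP-seq of 4 histone marks and 1 input was made in each of 9 strains (117 libraries). The authors deposited, per strain, 1 list of segments whose state number, 1 to 14, is a category and not a count, signal or score. The genome build was mm10 and FastQC 0.11.5 and MACS 1.4.2 were used, per the submitters' processing notes; the aligner, the segmentation tool and the depth are not given in the sources used here. The segments run in steps of 200 bp and were written as bins of the 19 autosomes. Strains have common ancestors, so they are not independent samples in full.

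Genes, promoters and microRNAs came from RefSeq tables of GRCm38.p6, whose sequences do not cover every gene; 206 of 210 list genes matched an autosomal protein-coding gene. Members and lists were chosen with earlier results of these data known. The genes named were those at the 10 longest blocks and the 10 with most switch bins of each pair, and list genes with most switch bins; Ephx1, F2, Elovl6 and others come from the lists. Printed promoters and microRNAs, and the contrast promoters, were chosen after their values were seen. Tests were exact two-sided sign-flip permutations over 9 strains (512 patterns) with Benjamini-Hochberg adjustment. Alternatives changed the number of strains required, the flanks, the gene windows, the gene set, the region sizes and the strains used. The code recovered all planted switches in simulated data. Versions were matplotlib 3.10.9, pandas 2.3.3, numpy 2.4.6 and Python 3.11.15.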

Additional observations from a re-analysis of the deposited data

Results flagged for a closer look

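In 1 of 36 sets of 9 strain values, a strain lay apart from the rest by Dixon's gap test. NOD/ShiLtJ had a difference of 2.33 points in flanking state 8 around 1/2 switches, state 1 minus state 2, where the median strain had 0.96 and 129S1/SvImJ, the lowest, had 0.20. All 9 strains had a positive difference, and the mean fell from 0.981 to 0.641 points without NOD/ShiLtJ. Chance sets about 1 in 20 such sets apart, or 1.8 of 36.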

How the results depend on the processing

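Of 327 recomputed values, 313 stayed the same by a rule set for each kind, 11 moved and 3 were weaker. The 313 include 12 values of the neighbouring-switch difference and the distance to bins of state 3 in all 9 strains. No test over strains applies to these, so their labels are no support for the results. A test stayed the same if it kept its sign and its side of 0.05, also where it missed 0.05 both times. A count or share stayed the same if it was close to the main value. No tested value changed sign. Asking for each state in at least 2 strains gave 127835 switch bins and at least 4 gave 37939, against 78910. Comparing different blocks within a strain, instead of strains within a block, left 6 of 14 flanking states at 1/2 switches past 0.05 instead of 13. In that comparison state 4 at 1/2 differed by -2.54 points (adjusted p = 0.0547, exact permutation test) and state 3 at 2/6 by -0.012 points (adjusted p = 0.0515, exact permutation test). The cause was not tested. Within 2 kb of a gene end lay 7.59% of 1/2 bins and 3.90% of 2/6 bins, and with all annotated genes 8.65% and 5.21% lay within 1 kb. Leaving out each strain in turn gave 67007 to 70747 switch bins, a log2 distance difference of 0.90 to 1.01, and 11 to 14 and 12 to 14 flanking states past 0.05. Distances to bins of state 3 in all 9 strains gave a log2 difference of 0.56. With each strain left out in turn, the neighbouring-switch difference below 1 kb ran from 20.5 to 23.3 points. No paired analysis was possible because the numbers of the mice link no values: each strain has a single segmentation, and the strain is the unit within which distance and segment length differences were taken. In the flank tests, each strain's value was instead taken against the other strains at the same blocks. Segments carry no depth, so how firmly a bin was assigned to its state is unknown.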

Other observations

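Switch bins were spread over all 19 autosomes at unequal density. The 1/2 switches ran from 27.4 per 10000 bins on chromosome 3 to 58.9 on chromosome 19, and the 2/6 switches from 21.7 on chromosome 3 to 37.2 on chromosome 19. Relative to the bins ever in state 1, 2 or 6 the range was narrower, from 2.67% on chromosome 3 to 3.79% on chromosome 4 for 1/2, and from 1.90% on chromosome 10 to 2.58% on chromosome 16 for 2/6.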
